A study of Mus musculus with 4 samples.

Results

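Cone transducin and cone phosphodiesterase 6 (PDE6) are the enzymes that carry the light signal inside cones, and this report follows the transcripts of their 5 subunit genes. They are *Gnat2*, *Gnb3* and *Gngt2*, which encode the alpha, beta and gamma subunits of cone transducin, and *Pde6c* and *Pde6h*, which encode the catalytic and the inhibitory subunit of cone PDE6. They were chosen by gene symbol, and all 5 were found among the 22095 loci of the expression table. RNA-seq was performed on whole retinas at 3 weeks of age, with 2 *rd7* and 2 wild-type libraries. The *rd7* mice carry a mutant *Nr2e3*, which encodes a nuclear receptor that acts in developing rods, and were compared with wild-type C57BL/6J mice, which is also the strain given for the *rd7* mice. Each library pooled polyadenylated RNA of 8 retinas from 2 females and 2 males, so replicates are pools and the values of single animals are averaged in each. The *rd7* mutation is present in every cell, and whole retina mixes all retinal cell types.

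In a cone, light-activated opsin makes transducin exchange its bound nucleotide, and the freed alpha subunit relieves the inhibition that the gamma subunit holds on the PDE6 catalytic subunits. PDE6 then degrades cyclic GMP, and the cation channels of the outer segment close. Rods use the same cascade with other subunits, encoded by *Gnat1*, *Gnb1*, *Gngt1*, *Pde6a*, *Pde6b* and *Pde6g*, which need not all be confined to rods. The mouse retina holds far more rods than cones, and loss of *Nr2e3* is known for producing rods that also express cone genes. *Gnb3* is used outside cones as well, since ON bipolar cells couple their glutamate receptor to a G protein with this beta subunit. In whole retina, more cells of a type and more RNA per cell cannot be told apart.

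The promoter sequences of 2 of the 5 members are shown, the ones with an entry in the RefSeq table used here. Each line gives the 250 bases before the transcription start in build GRCm38.p6, on the plus strand, 5′ to 3′, at chr3:108092816-108093065 for *Gnat2* and chr6:136954273-136954522 for *Pde6h*. Capitals mark the letters of any of 4 motifs.
Gnat2: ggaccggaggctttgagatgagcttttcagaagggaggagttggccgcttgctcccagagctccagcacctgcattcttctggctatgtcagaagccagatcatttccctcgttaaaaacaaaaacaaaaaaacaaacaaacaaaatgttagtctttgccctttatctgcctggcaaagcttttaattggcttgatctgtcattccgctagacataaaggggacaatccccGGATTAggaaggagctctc
Pde6h: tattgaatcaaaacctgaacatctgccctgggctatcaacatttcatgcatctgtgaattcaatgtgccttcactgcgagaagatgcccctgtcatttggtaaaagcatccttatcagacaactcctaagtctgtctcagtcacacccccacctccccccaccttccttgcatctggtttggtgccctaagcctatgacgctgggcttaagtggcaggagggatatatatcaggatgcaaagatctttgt
The motifs searched on both strands were TAATCC, a core bound by the photoreceptor factors CRX and OTX2, AAGTCA, a half-site bound by NR2E3, AGGTCA, a half-site of other nuclear receptors, and TGCTGA, a half-site of the MAF family that includes NRL. The windows searched also held the first 50 bases of the transcript. *Gnat2* had 1 match, to the reverse complement of TAATCC, beginning 19 bases before the start, and this motif was present in 7.1% of all 32851 promoters of the table. The other 3 motifs were present in 15.1%, 16.3% and 19.5% of them. The *Pde6h* window held none of the 4. A match is a description of the letters only. *Gnb3*, *Gngt2* and *Pde6c* have no sequence shown.

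All 5 genes were higher in *rd7* retinas, by 2.04-fold to 9.06-fold in mean FPKM (fragments per kilobase of transcript, scaled to the number of fragments mapped). The order of the increase was *Gnat2* and *Pde6c*, then *Pde6h*, *Gnb3* and *Gngt2*. Differences on log2(FPKM + 0.1) were tested with limma over the 12655 genes whose mean FPKM reached 1, and genes were called at an FDR (false discovery rate after Benjamini-Hochberg adjustment) of 5%. All 5 members passed that filter and were higher at the FDR of 5%, where the calls among all genes tested came to 37.6% higher and 8.80% lower. Both *rd7* libraries lay above both wild-type libraries for each of the 5, as they did for 57.1% of all genes tested. A rise in itself was thus common in these libraries. Ranked from the largest rise, *Gnat2* stood at position 19, *Pde6c* at 20, *Pde6h* at 53, *Gnb3* at 72 and *Gngt2* at 255 of the 12655 genes. The median log2 fold change of the 5 members was 2.19 and that of all genes tested was 0.15. FPKM as deposited carry this general shift, and scaling the libraries by their median ratio moved the median of all genes to -0.0049, with 2492 genes higher and 2479 lower in place of 4755 and 1114. The split was 2350 higher and 2404 lower with quantile normalization, and 1523 higher and 1837 lower with a correction for GC content and length. All 5 members were higher with each of them.

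**Figure D1:**
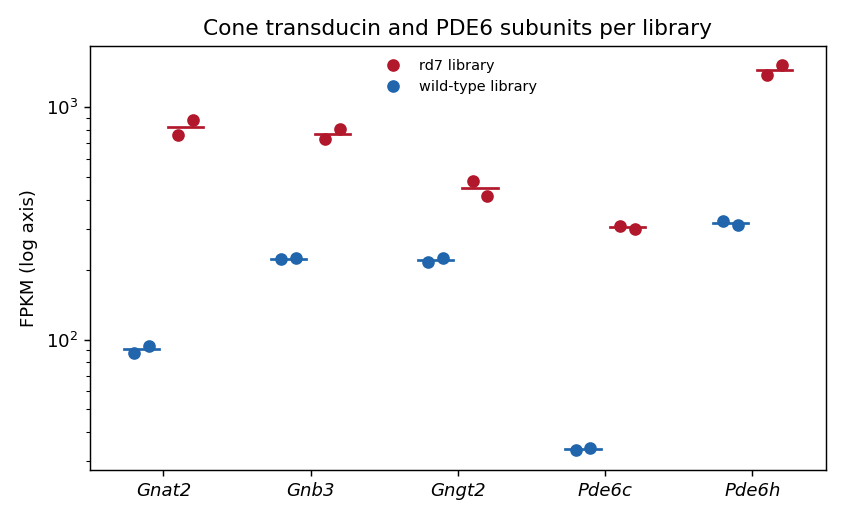
FPKM of the 5 cone subunit genes on a log axis, with 1 point per library (blue, wild-type; red, *rd7*) and a bar at the mean of 2 libraries. The *rd7* points lie above the wild-type points for each gene, with the widest gap for *Gnat2* and *Pde6c* and the narrowest for *Gngt2*.

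*Gnat2*, the alpha subunit that binds and hydrolyses GTP and activates PDE6, lies on chromosome 3 of mm9 from 107895986 to 107904203, on the plus strand. Both *rd7* libraries were high, at 757 and 884 FPKM, and the wild-type libraries stood at 87.8 and 93.4 FPKM. The groups did not overlap, and the *rd7* libraries differed from each other by more (coefficient of variation 10.9%) than the wild-type libraries did (4.36%). Its log2 fold change was 3.17 (standard error 0.08, 95% interval 2.97 to 3.38, adjusted p = 5.02e-05 from limma). None of the 2401 different 50-base windows of its annotated coding transcripts occurs in a coding transcript of another gene, *Gnat1* included.

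*Gnb3*, the beta subunit, lies on chromosome 6 from 124784258 to 124790293 on the minus strand. It was at 731 and 803 FPKM in *rd7* and at 222 and 224 FPKM in wild-type retinas. The wild-type pools were nearly equal, and both *rd7* pools were over 3 times as high. The fitted log2 fold change was 1.78 (standard error 0.06, 95% interval 1.63 to 1.93, adjusted p = 9.07e-05 from limma). As *Gnb3* is also a gene of ON bipolar cells, 13 genes of these cells were read beside it. Of the 12 that were tested, 7 were higher and none was lower, with a median log2 fold change of 0.26, beside 37.6% higher and 8.80% lower among all genes tested, and the summed FPKM of the list was 982 to 1107 in *rd7* and 898 to 933 in wild-type libraries. None of the 12 was at 0 in a library. The members of that list that differed most were *Nyx* (1.35), *Trpm1* (0.78) and *Cabp5* (0.54), followed by *Isl1* (0.42), whose call was lost under 7 of 13 alternatives. *Nyx* and *Trpm1* encode parts of the signalling complex at the tips of these cells' dendrites. With median-ratio scaling 4 were higher and 2 lower (median 0.11), with quantile normalization 4 were higher and 1 lower, and with a replicate block 7 were higher and 1 lower. The call count of the list fell to 3 with a correction for GC content and length, to 4 without a variance trend and without the filter on low FPKM, to 3 without wild-type replicate 1 and to 4 without wild-type replicate 2. The part of the ON bipolar genes' difference in that of *Gnb3* was not tested.

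*Gngt2*, the gamma subunit that anchors the beta subunit to the membrane, lies on chromosome 11 from 95703609 to 95707045 on the plus strand. It had the smallest difference of the 5 members, with 481 and 415 FPKM in *rd7* and 216 and 224 FPKM in wild-type retinas. Here *rd7* replicate 1 was the higher of the mutant libraries, whereas replicate 2 was the higher for *Gnat2*, *Gnb3* and *Pde6h*. On the log2 scale the difference was 1.02 (standard error 0.08, 95% interval 0.83 to 1.22, adjusted p = 0.000933 from limma). The locus overlaps that of *Abi3* on the other strand by 182 bases, and 66 of the 1964 windows of *Gngt2* are shared with *Abi3* transcripts when both strands are read. The protocol does not describe a step that keeps strand. *Abi3* was listed at 2.52 and 2.81 FPKM in *rd7* and 1.59 and 1.58 FPKM in wild-type retinas, far under the level of *Gngt2*.

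*Pde6c*, which encodes the catalytic subunit that hydrolyses cyclic GMP, lies on chromosome 19 from 38207271 to 38258439 on the plus strand. It was the least abundant member in both genotypes, at 308 and 300 FPKM in *rd7* and 33.3 and 34.1 FPKM in wild-type retinas. The 2 pools of each genotype were close together, with coefficients of variation of 1.99% and 1.69%. The log2 fold change was 3.17 (standard error 0.05, 95% interval 3.05 to 3.28, adjusted p = 9.43e-06 from limma). From the worth of 1 read in low genes, between 3565 and 31560 reads lay behind each value, and counting error alone would give a coefficient of variation of 1.68% for the lowest.

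*Pde6h*, the inhibitory gamma subunit of cone PDE6, lies on chromosome 6 from 136903044 to 136912004 on the plus strand. It was the most abundant member in every library, at 1381 and 1515 FPKM in *rd7* and 323 and 312 FPKM in wild-type retinas. Both mutant pools were over 4 times as high as either wild-type pool. The log2 fold change was 2.19 (standard error 0.06, 95% interval 2.03 to 2.34, adjusted p = 5.98e-05 from limma). Of its 5884 windows, 22 also occur in transcripts of 5 other genes, none of which is a PDE6 gene.

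Since FPKM are per length, the levels of the 5 genes can be set beside each other. Such a comparison, for *Pde6h* above all, rests on the transcript lengths behind the FPKM, which were not checked. In wild-type retinas the order of mean FPKM was *Pde6h* (318 ± 7.23, SD, n = 2 libraries), *Gnb3* (223 ± 1.395), *Gngt2* (220 ± 5.86), *Gnat2* (90.6 ± 3.95) and *Pde6c* (33.7 ± 0.571). *Gnb3* and *Gngt2* overlapped in range and did not differ beyond their spread, while the other neighbours in the order did not overlap. In *rd7* retinas the order was *Pde6h* (1448 ± 95.2), *Gnat2* (821 ± 89.9), *Gnb3* (767 ± 50.7), *Gngt2* (448 ± 47.0) and *Pde6c* (304 ± 6.05). Here *Gnat2* and *Gnb3* overlapped, and the others did not. *Gnat2* thus stood below *Gnb3* and *Gngt2* in wild-type retinas, while in the mutant its range overlapped that of *Gnb3* and lay above that of *Gngt2*.

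The subunits of each complex did not rise by the same factor. The ratio of *Gnat2* to *Gnb3*, in FPKM, was 0.395 and 0.417 in the wild-type libraries and 1.04 and 1.10 in the *rd7* libraries. The ratio of *Gngt2* to *Gnb3* was 0.972 and 1.00 in wild-type and 0.658 and 0.517 in *rd7* libraries. The alpha transcript therefore stood below that of beta in both wild-type libraries and slightly above it in both mutant libraries, and the gamma transcript moved the other way. The ratio of *Pde6h* to *Pde6c* was 9.68 and 9.15 in wild-type and 4.48 and 5.05 in *rd7* libraries, so the inhibitory transcript remained the higher in FPKM. In contrast, the ratio of *Gnat2* to *Pde6c* was 2.63 and 2.74 in wild-type and 2.46 and 2.95 in *rd7* libraries, with ranges that overlapped. Ratios within a library are independent of how libraries are scaled to each other by a single factor. With 2 libraries per genotype, 2 of the 6 arrangements of an exact two-sided permutation test are as extreme as any difference can be, so that test could not pass the threshold. Ratios and shares are given as values, with no test.

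Each cone subunit was then set beside its rod counterpart. Of the 6 rod counterparts, 5 could be tested, since the authors' software marked the estimate of *Gnb1* as failed in *rd7* replicate 1. At the FDR of 5%, 3 rod genes were lower, 0 were higher and 2 were not called, with a median log2 fold change of -0.47, where 8.80% of all genes tested were called lower. *Gnat1* was at 2710 and 3333 FPKM in *rd7* and at 5154 and 5206 FPKM in wild-type retinas, *Gngt1* at 1450 and 1447 against 2098 and 2129 FPKM, and *Pde6g* at 1870 and 1808 against 2509 and 2568 FPKM. Their log2 fold changes were -0.79, -0.55 and -0.47. *Pde6a* and *Pde6b*, the rod catalytic subunits, had log2 fold changes of 0.02 and 0.03 (adjusted p = 0.832 and 0.764 from limma). *Pde6a* was called higher without *rd7* replicate 1 (0.12) and *Pde6b* without *rd7* replicate 2 (0.13). Both turned negative without being called with median-ratio scaling (-0.13 and -0.12) and under the GC and length correction (-0.20 for each). The rod calls held under fewer alternatives than those of the cone genes. None of them passed without the filter on low FPKM or without either wild-type library, and that of *Gnat1* was also lost with quantile normalization (-0.24).

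**Figure D2:**
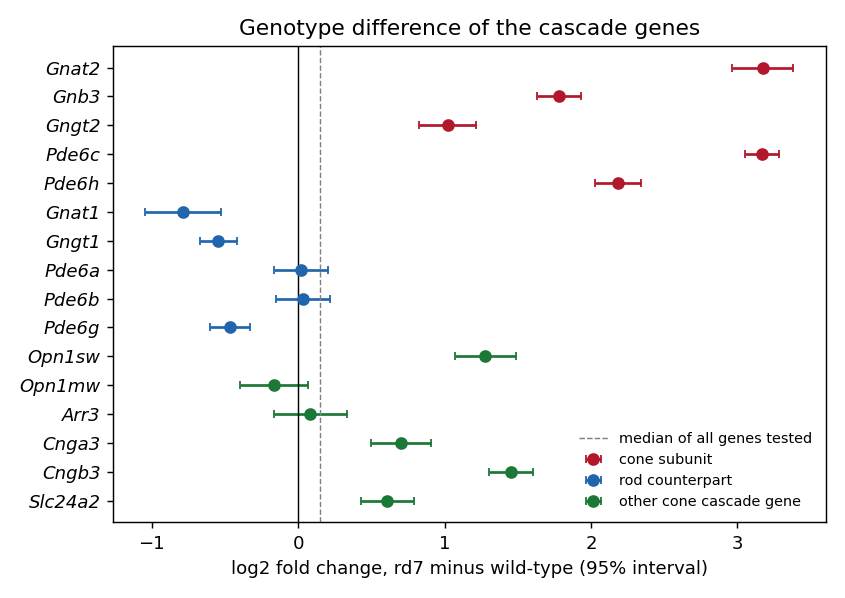
Log2 fold change of log2(FPKM + 0.1), *rd7* minus wild-type, with its 95% interval from limma, for the cone subunits (red), the rod counterparts that were tested (blue) and other genes of the cone cascade (green). The 5 cone subunits lie between 1.02 and 3.17, to the right of every rod counterpart, and the dashed line is the median of all genes tested at 0.15.

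The cone share of each pair gives the mixture in 1 number per library. *Gnat2* made up 1.68% and 1.76% of the summed FPKM of *Gnat1* and *Gnat2* in the wild-type libraries and 21.8% and 21.0% in the *rd7* libraries. *Pde6c* made up 2.88% and 2.90% of the 3 catalytic transcripts in wild-type and 21.0% and 20.6% in *rd7* libraries. The shares of both genes were close in the mutant, and that of *Pde6c* was the higher in both wild-type libraries. The share of *Gngt2* among *Gngt1* and *Gngt2* was 9.33% and 9.53% in wild-type and 24.9% and 22.3% in *rd7* libraries. That of *Pde6h* among *Pde6g* and *Pde6h* was 11.4% and 10.8% in wild-type and 42.5% and 45.6% in *rd7* libraries. In the libraries where *Gnb1* was estimated, the ratio of *Gnb3* to *Gnb1* was 0.472 in *rd7* and 0.116 and 0.113 in wild-type retinas. None of these shares overlapped between genotypes. The cone type remained the smaller part of each pair in every library.

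The sums of rod and cone transcripts went in different directions for transducin and PDE6. *Gnat1* and *Gnat2* together were at 3467 and 4217 FPKM in *rd7* and 5242 and 5299 FPKM in wild-type retinas, and *Gngt1* and *Gngt2* at 1932 and 1861 against 2314 and 2353 FPKM. By contrast, the sum of *Pde6a*, *Pde6b* and *Pde6c* was 1469 and 1456 FPKM in *rd7* and 1160 and 1179 FPKM in wild-type retinas, and that of *Pde6g* and *Pde6h* was 3251 and 3323 against 2832 and 2881 FPKM. The transducin sums were lower in both mutant libraries and the PDE6 sums higher. These sums depend on how the libraries are scaled and were not tested.

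**Figure D3:**
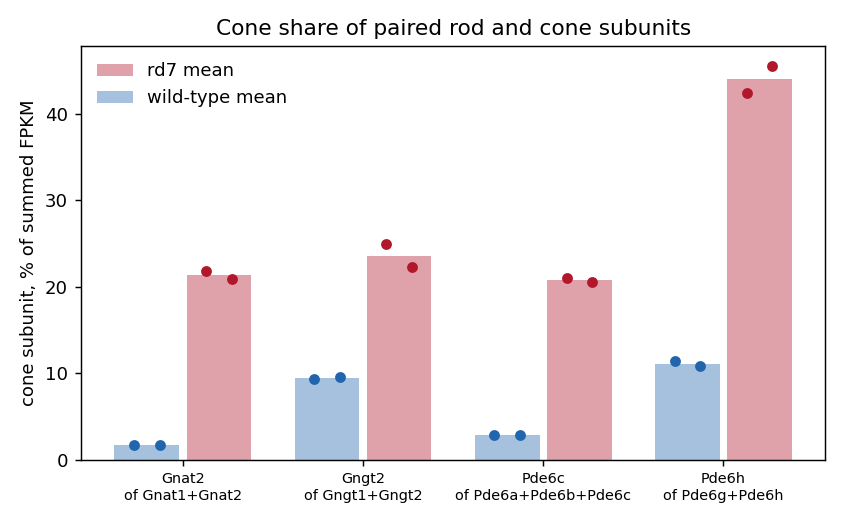
Share of the cone gene in the summed FPKM of rod and cone genes with the same role, in percent, with 1 point per library and bars at the mean of 2 libraries starting at 0. The *rd7* bars stand between 20.8% and 44.0%, and the wild-type bars between 1.72% and 11.1%.

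Other genes of the cone cascade were mixed. Of 6 genes, 4 were higher, 0 were lower and 2 were not called, with a median log2 fold change of 0.66. Among all genes tested 37.6% were higher and 8.80% lower, with a median of 0.15. *Cngb3* and *Cnga3*, the subunits of the cone channel that closes when cyclic GMP falls, rose by 1.45 and 0.70 on the log2 scale. *Opn1sw*, the short-wavelength opsin, rose by 1.28, and *Slc24a2*, which encodes a sodium, calcium and potassium exchanger, by 0.61. *Opn1mw*, the middle-wavelength opsin, was at 172 and 208 FPKM in *rd7* and 207 and 217 FPKM in wild-type retinas (log2 fold change -0.16, adjusted p = 0.202 from limma), and was called lower with median-ratio scaling (-0.32) and without *rd7* replicate 2 (-0.30). *Arr3*, cone arrestin, which ends the activity of cone opsin, was at 159 and 197 against 169 and 166 FPKM (log2 fold change 0.08, adjusted p = 0.534 from limma). With that scaling its sign turned without a call, and without *rd7* replicate 1 it was called higher (0.24). The log2 fold change of *Gngt2*, the smallest among the members, lay within the range of these 6 genes, and those of the other 4 members lay above it.

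Genes for the recovery of the light response were mixed. They are called shared cascade genes here, whether or not rods and cones use each one. Of 9 such genes, 3 were higher (*Guca1a*, 0.74, *Gucy2f*, 0.47, and *Rgs9*, 0.32), 4 were lower (*Guca1b*, -1.12, *Rgs9bp*, -0.40, *Gucy2e*, -0.31, and *Grk1*, -0.30), and *Gnb5* (0.16) and *Rcvrn* (0.11) were not called. The calls among all genes tested came to 37.6% higher and 8.80% lower, a share of lower calls below that of this list. *Rgs9*, *Rgs9bp* and *Gnb5* encode the complex that speeds the shutoff of the transducin alpha subunit, the *Gucy2* and *Guca1* genes encode the cyclase that restores cyclic GMP and its activators, and *Grk1* encodes the kinase of the activated opsin. Under the GC and length correction 1 was higher and 4 were lower, and *Gucy2f* (0.10, adjusted p = 0.213 from limma) and *Rgs9* (0.11, adjusted p = 0.151) were no longer called. Without the filter on low FPKM, 1 of the 9 genes was called. Leaving out wild-type replicate 1 gave 2 calls and leaving out wild-type replicate 2 gave 3.

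Genes for the assembly, lipid modification and transport of transducin and PDE6 did not move as a group. Of 14 genes, 4 were higher, 3 were lower and 7 were not called, with a median log2 fold change of 0.07. The share called higher was below that of all genes tested (37.6%), and the share called lower was above theirs (8.80%). *Pggt1b*, a subunit of the enzyme that attaches the geranylgeranyl lipid, had the largest rise (0.88), followed by *Rp2h* (0.62) and *Pdcl* (0.38). *Unc119*, which carries lipid-modified transducin alpha, was lower (-0.47), as were *Arl3* (-0.25) and *Icmt* (-0.19). *Aipl1*, the chaperone of PDE6, was at 833 and 842 FPKM in *rd7* and 829 and 837 FPKM in wild-type retinas. Under the GC and length correction 1 gene was higher and 4 were lower, and *Rp2h* (0.22, adjusted p = 0.144 from limma) and *Pdcl* (0.07, adjusted p = 0.389) were no longer called. Without the filter on low FPKM 2 of these genes were called, without wild-type replicate 1 also 2, and without wild-type replicate 2, 4 genes.

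None of the other G protein and phosphodiesterase genes tested rose as much as *Gnat2*, *Pde6c*, *Pde6h* and *Gnb3*. Of 24 other G protein subunit genes, 20 were tested, and 9 were higher and 2 lower, with a median log2 fold change of 0.17 and a highest value of 0.72 (*Gnai3*), followed by *Gnb4* (0.64). *Gnaz* (-0.46) and *Gnas* (-0.17) were lower. These counts and the median lie near those of all genes tested, with 37.6% higher, 8.80% lower and a median of 0.15. The calls of *Gnb4* and *Gnas* were each lost under 5 of 13 alternatives, which for both included the fit without the filter on low FPKM and those without either wild-type library. *Gnb4* was not tested under the alternative with a mean FPKM of at least 5. Of 18 other phosphodiesterase genes, 16 were tested, and 11 were higher and none was lower, with a median of 0.54, beside the same 37.6% and 8.80%. *Pde8a* (1.56) and *Pde3a* (1.12) had the largest rises.

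Genes with the most similar profile were sought over the 4 libraries, as the Euclidean distance of log2(FPKM + 0.1) after centring each gene on its mean. *Pde6c* was the nearest of all genes tested to *Gnat2* (distance 0.191), followed by *Cckbr* (0.293) and *4930588N13Rik* (0.369), and *Cckbr* (0.188), *Gnat2* and *Otop3* (0.220) were nearest to *Pde6c*. *Cckbr*, a cholecystokinin receptor, was at 39.9 and 37.7 FPKM in *rd7* and 4.78 and 4.86 FPKM in wild-type retinas. The nearest genes to *Gnb3* were *C130039O16Rik* (0.150), *Slc38a1* (0.156) and *Prickle2* (0.190), to *Gngt2* they were *Olfr613* (0.0432), *Rimklb* (0.0438) and *Neurod4* (0.0451), and to *Pde6h* they were *Ipo4* (0.0743), *Megf9* (0.114) and *Slc24a4* (0.166). No member other than *Gnat2* and *Pde6c* was among the 3 nearest of another. With 4 libraries in 2 groups, these distances mainly compare the size of the genotype difference, and the nearest genes are a description.

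The genes beside the members on the chromosomes were read in the same table. *Arhgdib*, 12805 bases from *Pde6h*, was at 20.9 and 29.1 FPKM in *rd7* and 4.44 and 4.12 FPKM in the wild type (log2 fold change 2.50, adjusted p = 0.00054 from limma). The neighbours of *Gnat2*, *Ampd2* and *Gnai3*, had log2 fold changes of 0.67 and 0.72, and both were called higher. Beside *Gnb3*, *Leprel2* (0.34, adjusted p = 0.0843 from limma) was not called and *Cdca3* was under the filter, at 0.916 and 1.01 FPKM in *rd7* and 1.10 and 0.963 FPKM in wild-type retinas. Beside *Gngt2*, *Abi3* was called higher (0.71), although not without wild-type replicate 1, *Phospho1* (0.16) was not called and *B4galnt2* was under the filter. Beside *Pde6c*, *5730455O13Rik* was called lower (-0.18, adjusted p = 0.0489 from limma), a call lost under 6 of 13 alternatives, including the replicate block and the fits without *rd7* replicate 2 or either wild-type library, and *Rbp4* was under the filter at 1.01 and 0.675 FPKM in *rd7* and 0.428 and 0.468 FPKM in wild-type retinas. *Rerg*, beside *Pde6h*, was also under the filter.

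Levels of other markers give the setting of these values. *Nr2e3*, the mutated gene, was itself at 2493 and 1589 FPKM in *rd7* and 385 and 394 FPKM in wild-type retinas. Of 6 rod markers tested, 5 were lower and 0 were higher, beside 8.80% lower and 37.6% higher among all genes tested. Of 8 Müller cell markers, 4 were higher, beside 37.6% of all genes tested, with summed FPKM of 2003 to 2082 in *rd7* and 1854 to 1920 in wild-type libraries. Of 8 pigment epithelium markers, 4 were tested and all 4 were higher, beside 37.6% of all genes tested. The summed FPKM of the list was 52.1 to 57.2 in *rd7* and 18.5 to 31.4 in wild-type libraries. The untested members of that list were mixed. *Best1* was lower, at 0.110 and 0.071 FPKM in *rd7* and 0.178 and 0.236 FPKM in wild-type retinas. *Lrat* was higher, at 1.12 and 0.881 against 0.324 and 0.235 FPKM. *Mlana* overlapped between genotypes and was listed at 0 in wild-type replicate 2. The part of these differences in those of the cone subunits was not tested.

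The differences of the 5 members held under each of the 13 alternatives, which were other pseudocounts, filters and scalings, a fit without a variance trend, a replicate block, a correction for GC content and length, and leaving out each library. The log2 fold change ranged from 2.92 to 3.29 for *Gnat2*, 2.93 to 3.19 for *Pde6c*, 1.87 to 2.25 for *Pde6h*, 1.62 to 1.85 for *Gnb3* and 0.87 to 1.13 for *Gngt2*. The lowest value of *Pde6h* came from the GC and length correction, which used an exonic length of 7710 bases for this gene, and that may not be the length behind its FPKM. The highest adjusted p from limma over these settings was 0.0402, for *Gngt2* without the filter on low FPKM.

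**Figure D4:**
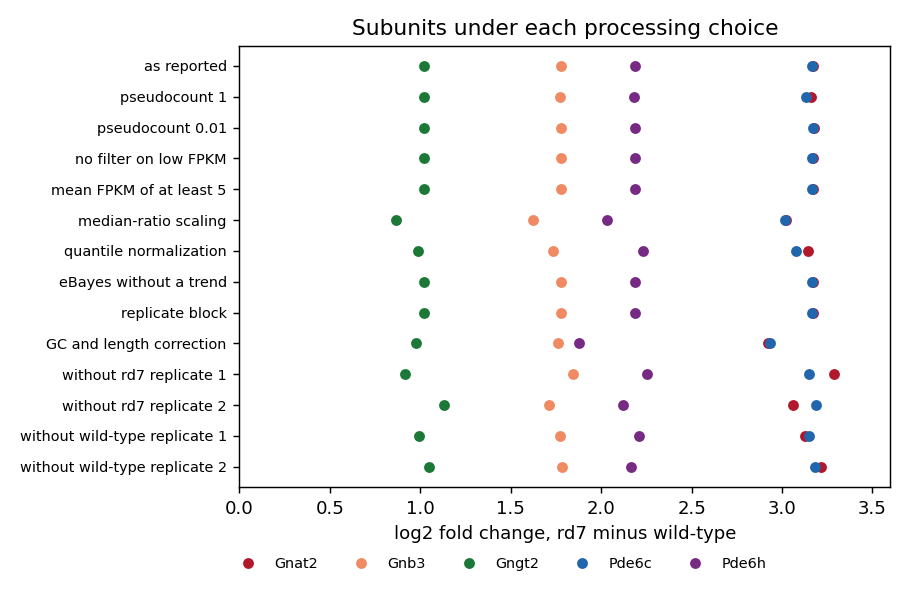
Log2 fold change of each cone subunit, *rd7* minus wild-type, as reported and under 13 alternatives, with 1 point per gene and setting. *Gngt2* lies between 0.87 and 1.13 and *Gnat2* between 2.92 and 3.29, and the order of *Gngt2*, *Gnb3* and *Pde6h* is the same in each row.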

How the data were processed

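Retinas of 2 *rd7* and 2 wild-type pools were sequenced as single reads of 50 bp. The authors mapped reads to mm9 with TopHat 1.4.1 and deposited FPKM per gene and library, computed with Cufflinks 1.3.0, with a status for each estimate. A table of the authors' own Cuffdiff comparison (pooled FPKM, fold changes, p-values and q-values) was not used. FPKM are not counts, so no count model was applied. Columns were matched to samples by name.

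Of 22095 loci, 262 without a successful status in all 4 libraries were left out. The test was that of limma 3.58.1, run in R 4.3.3 on log2(FPKM + 0.1) for genes whose mean FPKM reached 1. Variances were moderated along their trend with level, p-values were two-sided and adjusted by Benjamini-Hochberg over every gene tested, and calls were made at an FDR of 5%. They measure the spread between pools. The members and lists were chosen with earlier results of these data known. The genes named are the members, genes of the lists under fixed limits, the nearest and overlapping loci, and the 3 nearest profiles of each member. *Aipl1*, *Mlana*, *Best1* and *Lrat* were added after their values were seen.

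Exonic length, GC content and transcripts came from GENCODE M1 on the same build, which gave 96.9% of the genes tested a length and GC content. Starts of loci were counted from 1. The depth, from the most frequent low FPKM times kb in genes with 1 transcript, was between 34510000 and 37110000 reads per library. This is an estimate, and its precision covers counting error only. The fit was checked on simulated data. A first simulation, whose spread was raised locally around noisy genes, gave more false calls than the limit set for it. Other models of the spread were then tried. The one kept drew gene-specific spread around the variance trend that limma fitted to these data, and gave false calls near the FDR set. That is the model limma assumes, so a rate near the FDR was built in and is no check of the calls. Far fewer genes were changed in the simulation than were called in the data. Calls near the threshold may thus be less certain than their adjusted p states. Other values were computed in Python 3.11.15.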

Additional observations from a re-analysis of the deposited data

How the results depend on the processing

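The 5 members were called higher under all 13 alternatives. Counts of all genes moved from 5869 to 2704 without a filter on low FPKM and to 3360 (1523 higher and 1837 lower) under the GC and length correction. Leaving out 1 library gave 1517 to 6955, with 1517 without wild-type replicate 1 and 2462 without wild-type replicate 2. Without a filter, 0 rod counterparts, 1 shared cascade gene, 2 assembly and trafficking genes and 4 ON bipolar genes were called. ON bipolar calls numbered 4 without a variance trend and 3 with the GC and length correction. With a library left out, calls ranged from 0 to 4 for rod counterparts, 2 to 8 for shared cascade genes, 2 to 8 for assembly and trafficking genes and 3 to 10 for ON bipolar genes. The lone library left in a genotype was assumed to vary like the other genotype.

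The log2 difference in the ratio of cone to rod gene was, with quantile normalization, 3.38 for *Gnat2* to *Gnat1* (3.96 as reported), 1.32 for *Gngt2* to *Gngt1* (1.57), 3.06 for *Pde6c* to *Pde6b* (3.14) and 2.49 for *Pde6h* to *Pde6g* (2.65). With the GC and length correction it was 3.76, 1.92 and 2.40 for *Gnat2*, *Gngt2* and *Pde6h*, the last with an exonic length that may not be the one behind its FPKM. The cause was not tested.

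Genes that were not called as reported changed sign as follows. With median-ratio scaling, *Pde6a* was -0.13, *Pde6b* -0.12, *Arr3* -0.073 and *Rcvrn* -0.042, and with quantile normalization *Arr3* was -0.0032 and *Phospho1* -0.032. With the GC and length correction, *Pde6a* was -0.20, *Pde6b* -0.20, *Arr3* -0.12 and *Gnb5* -0.031. With libraries left out, *Pde6a* ranged from -0.075 to 0.12, *Pde6b* from -0.069 to 0.13 and *Arr3* from -0.072 to 0.24. The highest of each was called, *Pde6b* without *rd7* replicate 2 and the others without *rd7* replicate 1. Of 47 other named genes called, 26 kept their call and direction under every alternative in which they were tested. Genes with a mean FPKM under 5 were not tested with the stricter filter.

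Replicate numbers only name the pools, since *rd7* and wild-type replicate 1 did not deviate together (r = -0.0265 over genes, each gene relative to its genotype mean). The replicate block gave 5599 calls in place of 5869, with all 5 members higher.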
